A study of Homo sapiens with 77 samples.

Results

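DB derives from diffuse large B-cell lymphoma (DLBCL), and the 2 DB libraries of vehicle-treated (DMSO) cells were set against the DMSO libraries of 3 other lymphoma lines, K422 (KARPAS422), Farage and SUDHL5. These 8 RNA-seq libraries, 2 per line, were taken from the 77 samples of the series, and each line had the same weight in the comparison whatever its depth. All 4 lines were established human lines grown in RPMI with fetal bovine serum, and the DMSO cells served as vehicle controls for MI-503, an inhibitor of the menin-MLL interaction. The study described DB and K422 as EZH2 mutant and Farage as EZH2 wildtype, and the status of SUDHL5 was not found in the sources used here. A gene on which DB differs from every other line thus also differs between DB and a line of the same status. Each line is a single model, so that EZH2 status and line cannot be told apart here. Nothing states that the 2 libraries of a line came from separate cultures, so the p-values measure the spread between libraries, which may be technical. Library totals ran from 14556778 to 54883332 counts, with 14695930 and 15474692 in DB, and mitochondrial transcripts took 9.36 and 9.09% of the DB counts against 3.7 to 8.81% in the other 6 libraries.

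DLBCL arises from mature B cells, and many of its lines keep the program of the germinal center, the structure in which B cells mutate their antigen receptor genes and are selected. Cells of this stage carry a B cell receptor coupled to kinases and phosphatases, present antigen on major histocompatibility complex (MHC) class I and II molecules, and answer interferon through STAT and IRF factors that act on a DNA element, the interferon-stimulated response element (ISRE). PRC2, whose catalytic subunit is EZH2, places the repressive mark H3K27me3, and EZH2 mutations of germinal center lymphoma raise this mark.

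Of the 35813 genes in the count table, 14066 passed the filter on low counts and were tested. Levels are given as CPM, the counts of a gene divided by a library total that was scaled by the trimmed mean of M-values (TMM), and they compare one gene between lines, not one gene with another. Against the mean of the 3 other lines, edgeR's quasi-likelihood test called 3666 genes higher in DB (26.1% of those tested) and 3526 lower (25.1%), at a Benjamini-Hochberg adjusted p under 0.1 and a fold above 1.5, which are the study's thresholds. Such a mean can be carried by 1 line, so a gene was said to set DB apart only where DB differed in one direction from each of the 3 lines. This left 1513 genes higher in DB than in every other line (10.8%) and 1533 lower (10.9%), and 842 further genes differed from all 3 lines but not in the same direction. The gap to the nearest line had a median of 1.14 log2 units among the higher genes and 1.24 among the lower ones. It reached at least 4-fold for 415 higher and 504 lower genes, and at least 32-fold for 120 and 179. The median log2 difference over all genes tested was -0.02. When each of the other lines was taken in turn as the line set apart, K422 had 1166 higher and 1227 lower genes, Farage 1453 and 1079, and SUDHL5 1196 and 993. The share of tested genes apart in either direction was 21.7% for DB, 17% for K422, 18% for Farage and 15.6% for SUDHL5, and the differences between these shares were not tested.

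The label of the line was checked against B cell markers. Of 28 genes of B cell identity, all of which were tested, 3 were higher in DB than in each line (10.7%, against 10.8% over all tested genes). There were 6 lower members (21.4%, against 10.9%), and the median log2 difference from the mean of the others was 0.10. MS4A1, which encodes CD20, stood at 1190 and 1230 CPM in the 2 DB libraries and between 1010 and 1170 CPM in the other 6, and PAX5, the B lineage factor, stood at 441 and 429 CPM within the range of 388 to 648 CPM of the others. The summed level of 18 T cell markers was 56.1 and 54.8 CPM in DB against 186 to 483 CPM elsewhere, with CD3D and CD8A at 0 in both DB libraries. Of the 10 T cell markers tested, TRAC was lower in DB than in each line, and 2 were higher, CD6 (3.02 and 3.17 CPM against at most 0.801 CPM) and LAT (10.6 and 11.3 CPM against at most 4.31 CPM). The sum was 3.48 and 3.42 CPM for 11 NK cell markers, 2.49 and 2.55 CPM for 16 myeloid markers, and 0.262 and 0.623 CPM for 14 erythroid and megakaryocyte markers. For 13 epithelial markers it was 23.9 and 21.3 CPM, most of it KRT10, and for 12 fibroblast and endothelial markers 49.6 and 46.3 CPM, most of it DCN, against 2.19 to 739 CPM in the other lines.

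Among the lower genes, 56 were silent in DB alone, at 0.5 CPM or less in both DB libraries and at 5 CPM or more in each of the other 6, and 16 of them had no count in either DB library. S1PR2, a sphingosine-1-phosphate receptor that confines germinal center B cells to the follicle, headed the lower genes. It had 0 counts in both DB libraries, 69.2 and 66.2 CPM in K422, 51.1 and 56.1 CPM in Farage and 174 and 169 CPM in SUDHL5. Against a floor of 3 counts over the 2 DB libraries, it was at least 559-fold lower than in Farage, the nearest line (edgeR adjusted p = 4.99e-15 against the mean of the 3 lines). TLE4, a corepressor of the Groucho family, was also at 0 in DB and lay between 42.3 and 62.3 CPM in the other 6 libraries, at least 458-fold apart. Counts of 0 in DB were shared by SESN3, a sestrin (17.5 to 69.4 CPM elsewhere, at least 194-fold), LIPA, the lysosomal acid lipase (18.1 to 36.2 CPM, at least 192-fold), and ARHGEF3, a guanine nucleotide exchange factor (13.8 to 108 CPM, at least 150-fold). That no DB library overlapped any library of another line for these genes follows from the limits by which silent genes were chosen. These folds cover counting error only.

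The genes silent in DB included FAS, a gene of cell death, and CDKN1A, a gene of growth arrest, beside genes of other functions. Of 28 apoptosis receptor and effector genes tested, 7 were lower than in each line (25%, against 10.9% over all tested genes) and none was higher. GADD45A, another growth arrest gene, was higher in DB. FAS, the death receptor, stood at 0.131 and 0 CPM in DB, at 76.8 and 70.6 CPM in K422, at 138 and 135 CPM in Farage and at 39.2 and 35.8 CPM in SUDHL5. From 2 counts in DB its ratio to SUDHL5, the nearest line, was 587-fold (95% counting interval 162 to 4840). CDKN1A, which encodes the cyclin-dependent kinase inhibitor p21, had a single DB count (0.0656 and 0 CPM) and stood between 14.8 and 74.3 CPM elsewhere, a ratio of 486-fold (87.3 to 19200) to K422. FOXO1, a transcription factor of B cell development and of the germinal center dark zone, stood at 0.197 and 0.436 CPM in DB and between 65.5 and 132 CPM in the others (log2 difference from the mean of 3 lines -8.31 ± 0.113 SE, adjusted p = 1.77e-16). SOCS1, a brake on cytokine receptor signaling, was at 0.131 and 0 CPM against 11.7 to 38.1 CPM, and GPX1, a glutathione peroxidase, at 0.0656 and 0.125 CPM against 27 to 48 CPM. In each case all other libraries stood far above both DB libraries, as the limits for silent genes require.

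**Figure D1:**
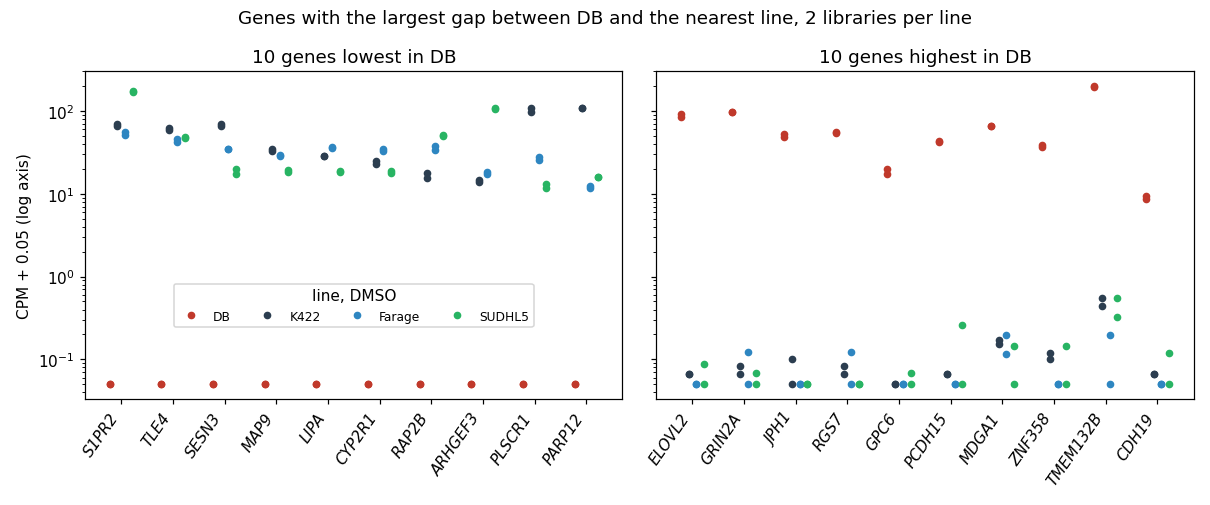
Level of 10 genes lowest (left) and 10 genes highest (right) in DB by gap to the nearest line, among genes reported here, one point per library, as CPM + 0.05 on a log axis, with color for the line (2 libraries each). In the left panel both DB libraries sit at 0 CPM (the bottom of the axis) below every other library, and in the right panel DB sits alone above the rest. The genes were chosen by this gap.

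In the opposite direction, 63 genes were on in DB alone, at 5 CPM or more in both DB libraries and at 0.5 CPM or less in each of the other 6. ELOVL2, an elongase of very long polyunsaturated fatty acids, stood at 84.1 and 91.6 CPM in DB, at 0.0171 and 0.017 CPM in K422, at 0 in both Farage libraries and at 0.0386 and 0 CPM in SUDHL5. From 2 counts in SUDHL5 the ratio was 2910-fold (95% counting interval 805 to 24000). GRIN2A, a subunit of the NMDA receptor, stood at 96.4 and 97.9 CPM in DB and at no more than 0.0729 CPM in any other library. RGS7, a regulator of G protein signaling (54.4 and 55.3 CPM), PCDH15, a protocadherin (41.8 and 42.8 CPM), and MDGA1, a membrane-anchored glycoprotein of neural cells (66.4 and 65.1 CPM), had likewise at most 0.0729, 0.208 and 0.146 CPM in the other lines. PTPRF, a receptor tyrosine phosphatase, stood at 117 and 112 CPM against a highest value of 0.348 CPM elsewhere (log2 difference 9.59 ± 0.137, adjusted p = 2.79e-16). IGF2BP1, an RNA-binding protein of fetal tissues, stood at 52.9 and 50.9 CPM against at most 0.205 CPM, and the transcription factor TEAD4 at 19 and 18.6 CPM against at most 0.204 CPM.

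Interferon-stimulated genes were lower in DB. Of 49 such genes tested, 21 were lower in DB than in each line, none was higher, and the median log2 difference from the mean of the 3 lines was -2.24, against the background of 10.9% lower and a median of -0.02 over all genes. The median was -5.41 against K422, -1.65 against Farage and -0.71 against SUDHL5, so that the size of the gap rested on the line compared. MX1, an antiviral GTPase, stood at 1.97 and 1.99 CPM in DB, 959 and 912 CPM in K422, 28.1 and 29.5 CPM in Farage and 15.3 and 15 CPM in SUDHL5 (log2 difference -5.23 ± 0.0877, adjusted p = 1.32e-15). IFIH1, the RNA sensor MDA5, had no count in DB and stood between 0.651 and 3.02 CPM elsewhere, and IFIT3, an RNA-binding effector, was at 0 and 0.0623 CPM against 0.335 to 112 CPM. DTX3L, a ubiquitin ligase, was at 1.18 and 0.872 CPM in DB against 58.3 to 297 CPM, and PARP9, its partner, at 0.525 and 0.685 CPM against 53.4 to 77.2 CPM. Both DB libraries lay below all others for each of these genes, which were chosen as lower than in each line.

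Among the factors that carry the interferon signal, STAT2 stood at 54 and 51.2 CPM in DB against 92.5 to 141 CPM (log2 difference -1.08 ± 0.0492, adjusted p = 5.27e-11), and IRF9, its partner, at 13.2 and 11.8 CPM against 17.7 to 98.1 CPM. IRF1 stood at 3.67 CPM in both DB libraries against 9.11 to 59.8 CPM, and IRF2 at 3.21 and 2.24 CPM against 32.8 to 77.7 CPM. Of 8 IRF genes tested, 4 were lower than in each line (50%, against 10.9% over all tested genes), IRF1, IRF2, IRF8 and IRF9. The call of IRF9 was lost with total counts alone (log2 difference from the mean of 3 lines -1.49, against -1.57), in the fit of all 16 libraries, with thinning, and without DB replicate 2 or SUDHL5 replicate 1. OAS1, which senses double-stranded RNA, did not set DB apart and was at 10.1 and 8.72 CPM in DB and at 9.52 and 10.3 CPM in SUDHL5.

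Many antigen presentation genes were lower as well. Of 19 MHC class I genes tested, 9 were lower than in each line (47.4%, against 10.9% over all tested genes). ERAP2 alone was higher (5.26%, against 10.8%), and the median log2 difference was -1.18. HLA-E, which presents leader peptides to NK cell receptors, stood at 0.656 and 0.623 CPM in DB, against 383 and 380 CPM in K422, 318 and 320 CPM in Farage and 340 and 318 CPM in SUDHL5 (log2 difference -9.06 ± 0.086, adjusted p = 5.59e-18). HLA-B was at 3.08 and 2.55 CPM against 71.3 to 820 CPM, and HLA-C at 8.07 and 6.79 CPM against 131 to 391 CPM. B2M, the light chain that all class I molecules share, stood at 209 and 215 CPM against 648 to 1910 CPM. NLRC5, the transactivator of class I genes, was at 9.77 and 10.3 CPM in DB and nearest in SUDHL5 at 16.2 and 14.6 CPM, a call lost with total counts alone (log2 difference from the mean of 3 lines -2.45, against -2.52) or without SUDHL5 replicate 1, whereas the peptide transporter subunit TAP1, at 58.2 and 63 CPM, was above the 47.2 and 46 CPM of SUDHL5. ERAP2, an aminopeptidase that trims peptides, stood at 238 and 239 CPM against 53.9 to 83.2 CPM. HLA genes differ in sequence between donors and share reads with one another, which could change their counts in any line, and its part in these differences was not tested.

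Of 17 MHC class II genes tested, 6 were lower in DB than in each line (35.3%, against 10.9% over all tested genes). HLA-DOB alone was higher (5.88%, against 10.8%). The median log2 difference from the mean of the 3 lines was -1.72. It was -2.46 against K422 and -2.39 against SUDHL5 but -0.08 against Farage, near the -0.01 over all tested genes, so the list as a whole was not below Farage. CIITA, the master regulator of class II genes, stood at 1.44 and 1.37 CPM in DB, 148 and 157 CPM in K422, 261 and 260 CPM in Farage and 85.8 and 81.6 CPM in SUDHL5 (log2 difference -6.73 ± 0.0865, adjusted p = 9.77e-17). CD74, the invariant chain, was at 419 and 415 CPM against 747 to 2250 CPM, and HLA-DPB1 at 2.1 and 2.12 CPM against 10.9 to 124 CPM. HLA-DRA did not set DB apart: at 4.59 and 4.05 CPM it was far below the 362 to 477 CPM of K422 and SUDHL5 but above Farage, which had 0.51 and 0.671 CPM.

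The promoters shown are of members that were low together in DB and held the ISRE, the element through which interferon factors act on these genes. They are RefSeq sequences of build GRCh38.p14, from 250 bases before to 50 bases after the annotated start of the gene, and capitals mark the ISRE, searched as GAAANNGAAA on both strands. IFIT3 lies on the plus strand of chromosome 10 (chr10:89327747-89328046), MX1 on the plus strand of chromosome 21 (chr21:41420308-41420607) and B2M on the plus strand of chromosome 15 (chr15:44711267-44711566).
IFIT3: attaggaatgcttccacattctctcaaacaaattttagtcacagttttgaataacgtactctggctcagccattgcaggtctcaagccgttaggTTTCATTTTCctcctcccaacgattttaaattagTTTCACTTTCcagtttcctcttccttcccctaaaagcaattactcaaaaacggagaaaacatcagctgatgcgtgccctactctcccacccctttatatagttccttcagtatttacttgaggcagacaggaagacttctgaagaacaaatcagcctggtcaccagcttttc
MX1: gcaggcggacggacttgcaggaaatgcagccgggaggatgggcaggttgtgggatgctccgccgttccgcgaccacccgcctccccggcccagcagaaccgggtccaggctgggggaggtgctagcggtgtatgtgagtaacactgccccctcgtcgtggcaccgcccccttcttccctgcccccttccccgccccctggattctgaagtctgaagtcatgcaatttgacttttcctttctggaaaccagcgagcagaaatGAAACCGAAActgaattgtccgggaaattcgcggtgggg
B2M: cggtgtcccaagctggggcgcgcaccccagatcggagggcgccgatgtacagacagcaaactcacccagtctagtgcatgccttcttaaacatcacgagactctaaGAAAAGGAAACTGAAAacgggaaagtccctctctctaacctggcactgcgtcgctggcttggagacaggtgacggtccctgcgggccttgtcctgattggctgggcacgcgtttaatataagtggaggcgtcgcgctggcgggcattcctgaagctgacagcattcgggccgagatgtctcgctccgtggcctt
The reverse strand of IFIT3 carried the element at 2 places, MX1 carried it once, and the 2 matches in B2M overlapped. Promoter sequences were found for 18 of the 21 interferon-stimulated genes lower than in each line, and 10 of the 18 held the element (55.6%). The share was 13 of 18 (72.2%) among the members not lower than in each line, 2.96% over the promoters of the 10428 tested genes that had one and 3.65% over all 27305 promoters of the RefSeq table. Of the MHC class I genes with a promoter, B2M among them, 3 of 6 lower members (50%) and 4 of 9 others (44.4%) held the element. A match is a description of the letters and not a site shown to be bound.

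**Figure D2:**
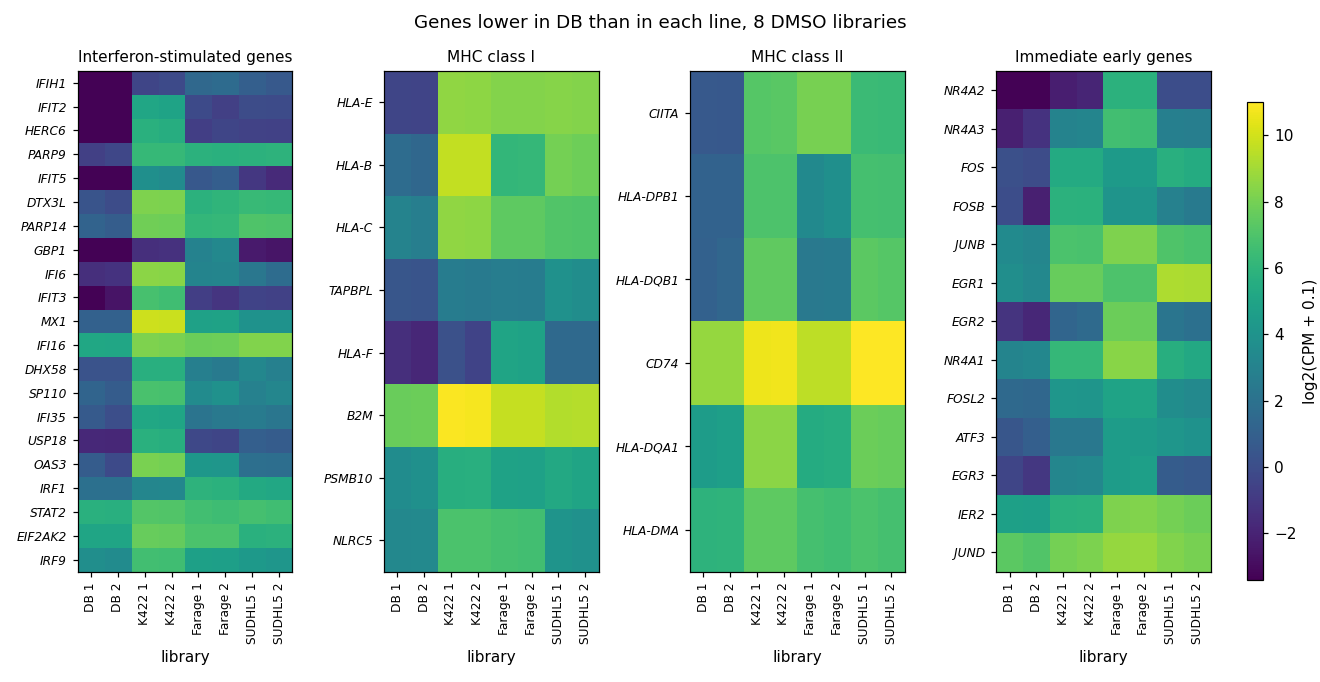
Level in each of the 8 DMSO libraries of the reported genes lower in DB than in each line, in the interferon-stimulated, MHC class I, MHC class II and immediate early lists, as log2(CPM + 0.1) by color, 1 row per gene and 1 column per library. The DB columns hold the lowest values in every row (21 interferon-stimulated, 8 class I, 6 class II and 13 immediate early genes), since the rows were chosen as lower in DB. K422 holds the highest value of 17 of the 21 interferon-stimulated genes.

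Immediate early genes, which cells switch on within minutes of a stimulus, were low in DB. Of 20 tested, 13 were lower than in each line (65%, against 10.9% over all tested genes). MYC alone was higher (5%, against 10.8%), and the median log2 difference was -3.06. EGR1, a zinc finger factor induced by receptor signaling, stood at 13 and 9.84 CPM in DB, 198 and 205 CPM in K422, 126 and 125 CPM in Farage and 605 and 571 CPM in SUDHL5 (log2 difference -4.44 ± 0.0686, adjusted p = 6.02e-16). FOS was at 0.984 and 0.872 CPM against 21.9 to 51.4 CPM and JUNB at 11.1 and 9.09 CPM against 118 to 300 CPM, both of them subunits of AP-1. Of the orphan nuclear receptors, NR4A1 stood at 8.59 and 9.46 CPM against 39.3 to 345 CPM and NR4A3 at 0.131 and 0.311 CPM against 6.79 to 100 CPM. JUN did not follow: at 39.1 and 34.6 CPM it was above K422 and Farage and below the 76.7 and 71.3 CPM of SUDHL5. MYC went the other way, at 680 and 681 CPM in DB against 205 and 206 CPM in K422, 198 and 197 CPM in Farage and 29.3 and 28.3 CPM in SUDHL5 (log2 difference 2.69 ± 0.024, adjusted p = 3.35e-18).

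The promoter of EGR1 (chr5:138465229-138465528, plus strand) holds copies of the CArG box, the element of serum response factor, marked here in capitals, and it was the only such promoter among the 11 found for the 13 lower genes.
EGR1: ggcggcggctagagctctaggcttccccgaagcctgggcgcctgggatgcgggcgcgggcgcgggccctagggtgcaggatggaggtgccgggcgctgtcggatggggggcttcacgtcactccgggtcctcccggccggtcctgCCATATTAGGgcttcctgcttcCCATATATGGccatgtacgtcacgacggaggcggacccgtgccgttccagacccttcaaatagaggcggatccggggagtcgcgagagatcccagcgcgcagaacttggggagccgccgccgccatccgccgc
The CArG box was found in 1.08% of the promoters of all tested genes on either strand, within the same window of 300 bases. In immediate early genes the element often lies further upstream, outside this window.

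Of 48 genes of the NF-kB pathway and its targets, 13 were lower in DB than in each line (27.1%, against 10.9% over all tested genes) and none was higher. The median log2 difference was -1.26 and ranged from -2.85 against Farage to -0.39 against K422. The lymphotoxin gene LTA stood at 0.262 and 0.187 CPM in DB against 15.2 to 260 CPM, its neighbor TNF at 0.787 and 0.125 CPM against 14.9 to 110 CPM, and LTB at 1.44 and 0.934 CPM against 25.4 to 114 CPM. NFKBIA, the inhibitor that NF-kB itself induces, stood at 17.6 and 16.8 CPM against 44.3 to 253 CPM. Among 25 cytokine and chemokine genes tested, 8 were lower (32%), LTA, TNF and LTB included, and CSF1 alone was higher (4%).

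Of 32 genes of B cell receptor signaling, 9 were lower in DB than in each line (28.1%, against 10.9% over all tested genes) and none was higher. The median log2 difference was -0.56. PTPN6, which encodes the inhibitory phosphatase SHP-1, stood at 1.31 and 1.06 CPM in DB, 542 and 534 CPM in K422, 500 and 490 CPM in Farage and 296 and 289 CPM in SUDHL5 (log2 difference -8.49 ± 0.0694, adjusted p = 1.59e-18). LYN, the main SRC kinase of B cells, was at 15.6 and 13.1 CPM against 63.5 to 211 CPM, and BLK and FYN, of the same kinase family, were lower too. VAV3, an exchange factor downstream of the receptor, had no count in DB against 3.64 to 257 CPM, and BANK1, an adaptor of the receptor, had none against 6.44 to 98.5 CPM. The receptor subunit CD79A did not set DB apart and was at 691 and 675 CPM within the range of 576 to 846 CPM of the other libraries. CD37, a tetraspanin, was higher, at 1180 and 1120 CPM against 127 to 447 CPM.

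Immunoglobulin constant genes showed which chains each line transcribed. In DB the reads fell on IGHG3, at 1720 and 1670 CPM against at most 62.9 CPM elsewhere, and on IGLC3, at 701 and 689 CPM against at most 119 CPM. IGKC, the kappa constant gene, had no count in DB against 884 and 918 CPM in K422 and 131 and 128 CPM in Farage, but SUDHL5 was near 0 too, at 1.1 and 0 CPM. IGHM was at 0.131 and 0 CPM in DB and at 0.257 and 0.272 CPM in K422, against 565 to 2720 CPM in Farage and SUDHL5, and its call against K422 was lost when the libraries were thinned to the shallowest and without DB replicate 2. The call of IGKC was lost without SUDHL5 replicate 1. The IGHG genes are near copies of one another, as are the IGLC genes, so that the split of reads between copies is uncertain.

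In the germinal center list, 3 of 34 genes tested were higher (8.82%, against 10.8% over all tested genes) and 8 lower (23.5%, against 10.9%) than in each line, with a median log2 difference of -0.11. Besides S1PR2 and FOXO1, the lower members included LMO2, at 1.11 and 0.996 CPM against 5.24 to 476 CPM, and P2RY8, a receptor that like S1PR2 signals through GNA13, at 146 and 145 CPM against 282 to 354 CPM. BCL6, the defining repressor of the stage, stood at 850 and 810 CPM in DB and did not differ from SUDHL5 by the fold required (793 and 780 CPM, log2 difference 0.08). RGS13, at 657 and 713 CPM against 176 to 455 CPM, was among the higher members, and its call was lost without DB replicate 2.

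Regulators of the cell cycle were lower in DB more often than higher. Of 24 inhibitors and drivers tested, 12 were lower than in each line (50%, against 10.9% over all tested genes). CDK6 alone was higher (4.17%, against 10.8%), and the median log2 difference was -0.81. Besides CDKN1A, the inhibitors CDKN1B (16.1 and 14.8 CPM against 45.6 to 117 CPM) and CDKN2A (12 and 10.1 CPM against 34.6 to 103 CPM) were lower, as was the retinoblastoma gene RB1, at 41.8 and 43 CPM against 62.7 to 277 CPM, a call lost with total counts alone (log2 difference from the mean of 3 lines -1.6, against -1.67), in the fit of all 16 libraries and without Farage replicate 2. Drivers were lower too, CCND3 standing at 37 and 40 CPM against 72.9 to 492 CPM. CDK6 stood at 246 and 238 CPM against 105 to 146 CPM (log2 difference 0.94 ± 0.0279, adjusted p = 4.61e-13). GADD45A, a growth arrest gene induced by DNA damage, was higher, at 78.9 and 79.3 CPM against 6.77 to 35.7 CPM. Of 17 BCL2 family genes tested, 2 were lower than in each line (11.8%, against 10.9%) and 1 was higher (5.88%, against 10.8%). This shows nothing particular to the family. PMAIP1, which encodes the BH3 protein NOXA, was a lower member, at 4.13 and 4.42 CPM against 59.7 to 173 CPM. BCL2 was at 325 and 335 CPM, above Farage and SUDHL5, and differed from K422 (238 and 234 CPM) by 0.49 on the log2 scale, under the fold required.

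For PRC2 and the MLL-menin and related COMPASS complexes, no gene was higher and the shares of lower genes were under the 10.9% over all tested genes. This shows nothing particular to them. PRC1, which shares the study's co-dependency module with them, had 4 of 24 tested genes higher (16.7%, against 10.8%) and 4 lower (16.7%). Of 13 PRC2 genes tested, 1 was lower (7.69%), PHF19, an accessory subunit, at 63.3 and 55.6 CPM against 115 to 193 CPM. EZH2 stood at 120 and 124 CPM in DB, 221 and 221 CPM in K422, 143 and 138 CPM in Farage and 153 and 146 CPM in SUDHL5, and its log2 difference from Farage of -0.20 was under the fold required. EED (58.7 and 62.8 CPM) and SUZ12 (140 and 142 CPM), the other core subunits, did not set DB apart either. Of 21 genes of the MLL-menin and related COMPASS complexes, 1 was lower (4.76%), WDR82. MEN1, which encodes menin, stood at 138 and 140 CPM against 55.4 to 102 CPM, but its log2 difference from K422, 0.47, was under the fold required, and KMT2A, which encodes MLL1, at 191 and 182 CPM, lay between Farage (121 and 120 CPM) and SUDHL5 (353 and 350 CPM).

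Of 13 genes that the study named as menin targets, 1, CDC6, was lower in DB than in each line (7.69%, under the 10.9% over all tested genes), and none was higher. This list was picked by the study from these libraries and is no independent evidence. MYB, a transcription factor of blood progenitors, stood at 1.9 and 1.87 CPM in DB, next to the 2.28 and 1.77 CPM of K422, while Farage had 50 and 51.5 CPM and SUDHL5 22.2 and 20.1 CPM. IRF5 was at 8.33 and 8.28 CPM in DB, and CD24, a surface glycoprotein, at 314 and 322 CPM, between SUDHL5 (66.2 CPM in both libraries) and K422 (1170 and 1130 CPM). For the amino acid genes PSAT1 (96.4 and 102 CPM), GPT2 (146 and 148 CPM) and SLC7A5 (361 and 349 CPM), at least 1 line was within the fold required or on the other side of DB. PSAT1 was below all others and missed the fold against Farage alone, with a log2 difference of -0.56, and it was called without DB replicate 2 or Farage replicate 1. Of 17 chromatin genes mutated in lymphoma, 2 were higher (11.8%, against 10.8% over all tested genes) and 1 was lower (5.88%, against 10.9%), which shows nothing particular to the list. SMARCA4, the ATPase of the BAF complex, was among the higher ones, at 852 and 847 CPM against 194 to 360 CPM. TET2, which oxidizes 5-methylcytosine, was the lower one, at 2.36 and 1.99 CPM against 26.5 to 90.1 CPM.

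Of 26 HOX, MEIS and PBX genes tested, 7 were lower (26.9%, against 10.9% over all tested genes) and 1, PBX3, was higher (3.85%, against 10.8%). HOXB4 had no count in DB against 2.89 to 11.2 CPM. Metabolic lists were lower on balance: 7 of 32 genes of glycolysis and the hypoxia response were lower (21.9%) and none higher, with a median log2 difference of -0.81. The same held for 7 of 25 genes of cholesterol and fatty acid synthesis (28%), with a median of -0.54. GAPDH, a glycolytic enzyme, stood at 2180 and 2160 CPM in DB against 4070 to 6330 CPM, and SLC2A3, a glucose transporter, at 0.59 and 0.872 CPM against 8.63 to 192 CPM. The mitochondrial share of the DB libraries (9.36 and 9.09%) was little above that of SUDHL5 (8.81 and 8.19%). It was 7.02 and 6.97% in Farage and 3.7 and 3.77% in K422. The part of this share in the differences was not tested. The median log2 difference over all tested genes was -0.02 with TMM and 0.06 with total counts alone. Of 32 genes of cytokine receptors and their signaling, 3 were higher (9.38%, against 10.8%) and 9 lower (28.1%, against 10.9%) than in each line. Among the higher ones were IL7R, at 39.1 and 39.5 CPM against at most 1.02 CPM, and the signal transducer STAT5B, at 535 and 536 CPM against 133 to 341 CPM.

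**Figure D3:**
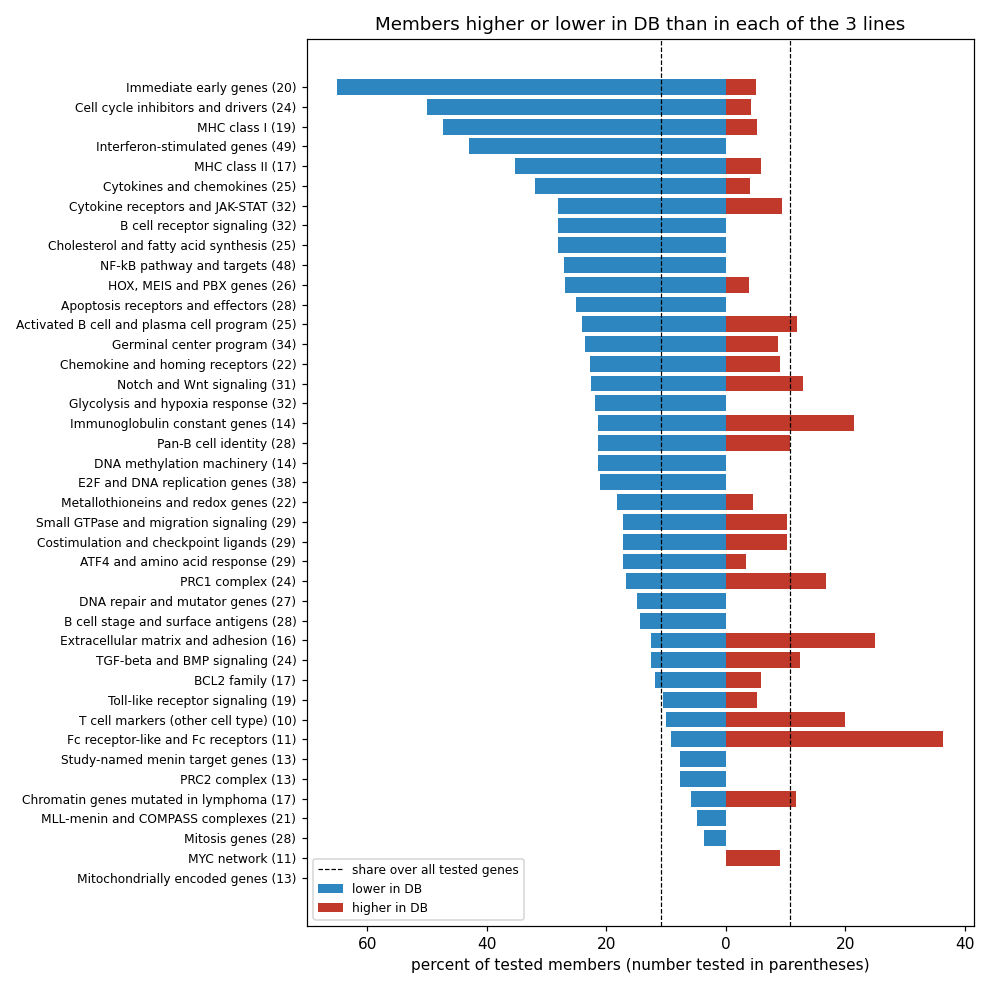
Share of the tested members of each gene list that were higher (right) or lower (left) in DB than in each of the 3 lines, in percent, for lists with at least 10 members tested, with dashed lines at the shares over all tested genes (10.8% higher, 10.9% lower). Immediate early, cell cycle, MHC class I and interferon-stimulated lists reach furthest to the left.

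The genes apart were spread unevenly over the chromosomes. On chromosome 20, 91 of 344 tested genes were higher in DB than in each line (26.5%) and 9 were lower (2.62%). Chromosomes 17 (19.1%) and 7 (18.5%) also held more higher genes than the 10.8% over all genes. Lower genes made up 207 of 745 tested genes on chromosome 3 (27.8%), 133 of 511 on chromosome 9 (26%) and 47 of 220 on chromosome 13 (21.4%), against 10.9% over all. The median log2 difference from the mean of the 3 lines was 0.61 on chromosome 20 and 0.45 on chromosome 7, -0.61 on chromosome 3, -0.58 on chromosome 13 and -0.51 on chromosome 9. The genes of a chromosome are not independent, so no test is given.

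**Figure D4:**
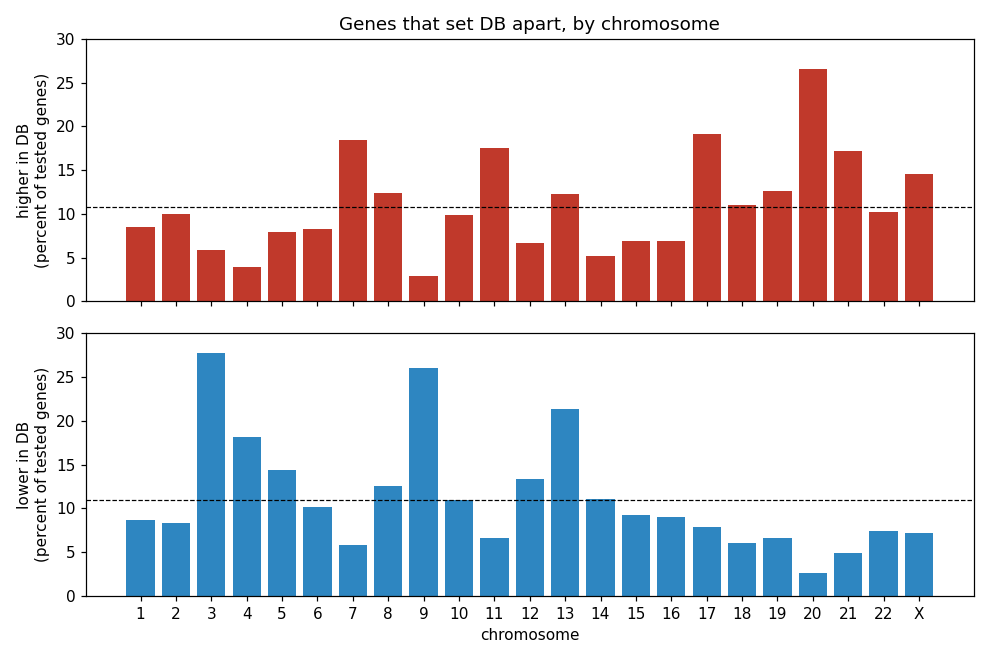
Share of tested genes on each chromosome that were higher (upper panel) or lower (lower panel) in DB than in each of the 3 lines, in percent, with a dashed line at the share over all tested genes. Chromosome 20 has the tallest bar in the upper panel and chromosomes 3 and 9 the tallest in the lower.

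Some of the genes apart lay side by side. By the order of GENCODE v44 genes on hg38, with genes not tested left out, the longest run of neighbors called in one direction was 9 higher genes from PYCR1 to DUS1L on chromosome 17 (chr17:81932384-82065887), among them RAC3, a small GTPase, and PYCR1, a proline synthesis enzyme. A run of 6 lower genes on chromosome 10 (chr10:88879734-89414557) joined STAMBPL1, ACTA2, FAS, LIPA, IFIT2 and IFIT3, with gaps to the nearest line between 3.55 and 12.12 log2 units. Runs of 6 lower genes also lay from DSTNP2 to PHB2 on chromosome 12, which held PTPN6 (chr12:6884898-6970780), from SUCLA2 to RCBTB2 on chromosome 13, which held RB1 (chr13:47745736-48599436), and from IER5L to C9orf78 on chromosome 9 (chr9:129175552-129835863). The run from TMEM94 to RECQL5 on chromosome 17 was higher (chr17:75441159-75667189). The call was lost in 7 of 15 alternatives for DSTNP2, in 4 of 16 for SUCLA2, and in 1 each for IER5L (without Farage replicate 1) and TMEM94 (without SUDHL5 replicate 2). Of 3 higher and 7 lower runs of 5 genes, 3 are given here, chosen after their members were seen. On chromosome 3, KPNA1, PARP9, DTX3L, PARP15 and PARP14 were lower in a row (chr3:122421902-122730840), and on chromosome 17 SKAP1 was followed by HOXB3, HOXB4, HOXB7 and HOXB9 (chr17:48133442-48633572), although the call of HOXB9 was lost in 13 of 14 alternatives, with DESeq2, with the replicate block and without any 1 of the 8 libraries among them. ELOVL2 stood in a row of 5 higher genes with SYCP2L, SMIM13, NEDD9 and TMEM170B on chromosome 6 (chr6:10886831-11583524), where the call of SYCP2L was lost in 11 of 14 alternatives, with DESeq2 and with the replicate block among them. The call of SKAP1 was lost without DB replicate 2. Some neighbors overlap, as FAS and ACTA2 do at their ends, and without a stated strand setting their reads cannot be told apart with certainty.

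The same comparison was then made in the 8 libraries of cells given MI-503, none of which had been used to choose the genes. All 4 lines carried the drug, at a dose and for a time that the study's text gives and the labels do not, and the DB libraries held 52236459 and 46170498 counts. Of the 16399 genes tested there, 2059 (12.6%) were higher and 1664 (10.1%) lower in DB than in each line. They held 1191 of the 1513 higher genes (78.7% of the DMSO list and 57.8% of the MI-503 list) and 1082 of the 1533 lower genes (70.6% and 65%). A single gene changed sides, from lower to higher, namely the transcription factor gene TFAP2E, which was named after its values were seen. It stood at 0.59 and 0.747 CPM in DB with DMSO against 1.07 to 1.84 CPM, a call lost in 7 of 15 alternatives, namely with DESeq2, with the replicate block, and without either DB library, either K422 library or Farage replicate 2. S1PR2 had 0 CPM in both DB libraries with MI-503 and at least 47.5 CPM elsewhere, FAS stood at 0.264 and 0.253 CPM against at least 36.2 CPM, and HLA-E at 3.84 CPM in both DB libraries against at least 344 CPM. Of the 56 silent genes, 38 again met the same limits, and of the 63 genes on in DB alone, 42 did. With MI-503, 18 of 49 interferon-stimulated genes were lower than in each line (21 with DMSO), 9 of 19 MHC class I genes (9), 4 of 17 MHC class II genes (6), 10 of 20 immediate early genes (13) and 1 of 8 IRF genes (4). The differences between these counts were not tested.

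**Figure D5:**
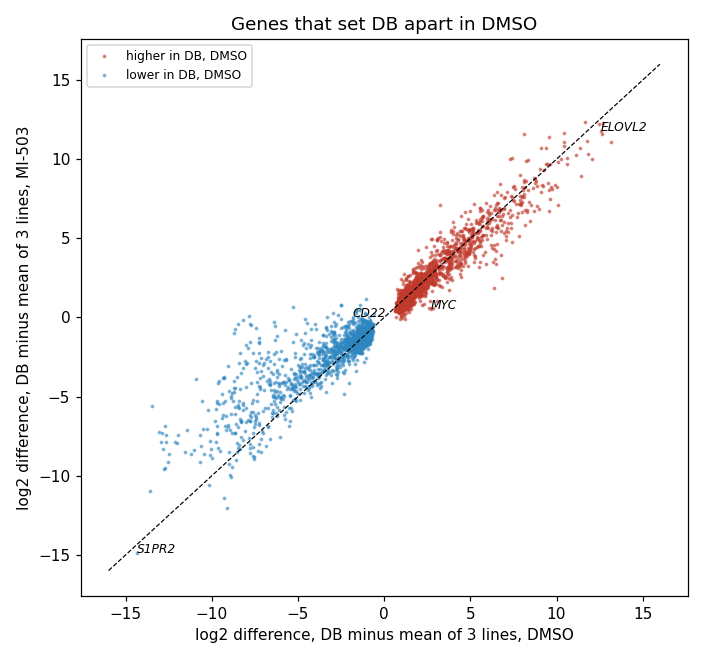
Log2 difference between DB and the mean of the 3 other lines in DMSO (x axis) and in MI-503 (y axis) for the 3040 genes that set DB apart in DMSO and were tested in both, 1 point per gene, with the diagonal as a dashed line. Of 1509 genes chosen as higher 3 lie below 0 with MI-503, and of 1531 chosen as lower 19 lie above 0, with MYC among those nearer 0 with MI-503.

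The size of the gap did differ between treatments for part of the genes. In a fit of all 16 libraries, the difference between DB and the mean of the other lines was larger or less negative with MI-503 for 1293 of 16274 genes and smaller or more negative for 998 (edgeR's interaction test, adjusted p under 0.1, fold above 1.5). The level of MYC in DB was 134 and 153 CPM with MI-503, its log2 difference from the mean of the others was 0.52, and it no longer set DB apart. CD22, a lectin that dampens the B cell receptor, was lower in DB than in each line with DMSO, at 199 and 189 CPM against 383 to 980 CPM, and had a log2 difference of 0.02 with MI-503. Depth moved with the treatment in DB, from 14695930 and 15474692 counts with DMSO to 52236459 and 46170498 with MI-503, and its part in these differences was not tested.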

How the data were processed

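Total RNA of the 4 DLBCL lines was sequenced after ribosomal RNA depletion. Per the labels and the study's methods, the authors aligned the reads against hg38 (HISAT2 2.1.0) and tallied them over genes (featureCounts 1.6.1). The deposited table holds raw read counts for 35813 genes. Gene annotation, strand setting and handling of multi-mapped reads were not given in the sources used here. Labels name an AllPrep kit for extraction and the methods name Trizol.

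The 8 DMSO libraries (14556778 to 54883332 counts) were fitted with edgeR 4.0.16 in R 4.3.3, with line as the only factor, filterByExpr and TMM scaling. Calls required a fold over 1.5 with a Benjamini-Hochberg adjusted p below 0.1, in 1 contrast with the equally weighted mean of the 3 lines and in 3 contrasts with each line. A gene set DB apart when all 3 contrasts passed with one sign. The 8 MI-503 libraries were fitted alone, and all 16 libraries for the interaction. The scripts were tested on simulated data. In DB replicate 1, 3 counts correspond to 0.204 CPM, and intervals and floors cover counting error only.

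Genes were named by rule, namely the 15 largest gaps in each direction with at least 5 CPM on the higher side, genes silent or on in DB alone, up to 6 called members per list and direction, 11 fixed genes and the longest runs of neighbors (9 and 6 genes). Members that did not follow their list or that bear on a result (MS4A1, PAX5, CD79A, BCL6, BCL2, JUN, STAT2, OAS1, TAP1, HLA-DRA, MX1, IFIT3, B2M, NLRC5, NR4A1, NFKBIA, CCND3, RB1, TFAP2E, CD3D, CD8A, KRT10, DCN) and 3 of the runs of 5 genes were named after their values were seen. XIST, genes of the Y chromosome, immunoglobulin variable segments and clone-based names were left out of names. The members and lists were chosen with earlier results of these data known. Alternatives were RLE and total-count scaling, other filters, DESeq2 1.42.0, a replicate block, thinning, and leaving out a library or line. Coordinates are from GENCODE v44. The other deposited files were not used here, and some genes are not reported here.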

Additional observations from a re-analysis of the deposited data

Results flagged for a closer look

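The gap between DB and the mean of the other 3 lines differed between MI-503 and DMSO (edgeR's interaction test in all 16 libraries, adjusted p under 0.1, fold above 1.5) for 46 of the 131 genes tested among those named in the report. Over all genes tested, 2291 of 16274 were called. Values below are the log2 gap with MI-503 minus that with DMSO. Of the genes lower in DB with DMSO, 30 had a positive difference and 2 a negative one, and 1 of the 30, TFAP2E, changed sides. Many of these genes were named for their values in the DMSO libraries, which also enter this test. That choice favors a smaller gap with MI-503, so these counts are no independent evidence.

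The antigen and interferon genes among them had values of 2.80 for HLA-B, 2.07 for HLA-E, 1.63 for HLA-C, 0.68 for B2M, 1.08 for NLRC5 and 0.93 for CIITA. The interferon-stimulated genes stood at 5.71 for IFIT2, 3.50 for DTX3L, 2.43 for PARP9, 1.30 for PARP14 and 0.82 for MX1, and their neighbor PARP15 at 2.29. Among interferon regulatory factors the difference was 1.82 for IRF2, 1.49 for IRF1, 1.40 for IRF5 and 0.71 for IRF9.

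Of the genes silent in DB with DMSO, the difference was 5.97 for SESN3, 5.38 for LIPA, 4.71 for ARHGEF3, 4.05 for NR4A3, 2.92 for SOCS1, 1.64 for FOXO1 and 1.49 for GPX1. It was 8.06 for IGKC, which had no DB count with DMSO and 1.11 and 1.14 CPM in DB with MI-503. For genes without a DB count in DMSO the fitted size depends on the prior count and is no bound. The DB libraries were also deeper with MI-503 (52236459 and 46170498 counts) than with DMSO (14695930 and 15474692), and the part of depth was not tested.

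Positive differences were also found for TFAP2E (2.16), SLC2A3 (1.89), CD22 (1.78), FOS (1.30), PBX3 (1.12), CD6 (1.10), PMAIP1 (1.11), JUN (0.69), FYN (0.67) and LYN (0.66). Negative differences were found for IGLC3 (-3.06), IL7R (-2.72), MYC (-2.22), IGHG3 (-1.17), RAC3 (-0.85), RGS13 (-0.79) and GADD45A (-0.69), all higher in DB with DMSO, and for MYB (-2.00), BCL6 (-1.85), LTB (-1.39), CD24 (-0.74) and CDC6 (-0.59).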

How the results depend on the processing

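The numbers of genes that were higher or lower in DB than in each line (1513 and 1533) stayed within 1.5 times under other scaling, filters, DESeq2, thinning and a fit of all 16 libraries, and lay between 1506 and 1567 (higher) and between 1442 and 1568 (lower) when a library was left out. They rose to 2314 and 2394 when K422 was left out of the comparison, since only 2 contrasts then had to pass. With total counts in place of TMM the numbers were 1635 and 1367. With MI-503 the leave-one-out counts were 1801 to 2116 (higher) and 1539 to 1690 (lower), and the interaction count of 2291 fell to between 1876 and 2121 when a DB library was left out. Counts for some lists and chromosomes under the same alternatives were added after the data were seen. They covered higher genes of chromosome 20 and lower genes of chromosomes 3 and 9. For lists they covered lower interferon-stimulated, immediate early, MHC class I and II, cell cycle, NF-kB and B cell receptor genes. Of these counts, 2 moved by over 1.5 times, the lower NF-kB genes (13) to 25 with K422 left out and the lower MHC class II genes (6) to 11 with Farage left out. The lower cell cycle genes (12) fell to 8, at the 1.5 limit, with the 5 CPM filter and in the fit of all 16 libraries. The other lists and chromosomes were not checked in this way.

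The replicate numbers did not pair the libraries (r of same-numbered deviations between -0.156 and 0.131 over 6 pairs of lines and 10469 genes), and a replicate block gave 1492 higher and 1511 lower genes, of which 1486 and 1502 were also called without it. With MI-503 the block gave 2017 and 1636, and for the interaction 2214.

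Of the 131 named genes, no called value changed direction over 2086 combinations of gene and alternative, and 14 genes lost their call in at least 1 (DSTNP2, HOXB9, IER5L, IGHM, IGKC, IRF9, NLRC5, RB1, RGS13, SKAP1, SUCLA2, SYCP2L, TFAP2E and TMEM94), 9 of these when a DB library was left out. The cause was not tested. With 2 libraries per line, and no source that says they were separate cultures, the p-values measure only the spread between libraries.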
